A study of Mus musculus with 2 samples.

Results

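The 8 genes described here encode a set of nuclear regulators of mitochondrial biogenesis. They are the coactivators Ppargc1a and Ppargc1b (PGC-1α and PGC-1β), the oestrogen-related receptors Esrra, Esrrb and Esrrg (ERRα, ERRβ and ERRγ), the nuclear respiratory factors Nrf1 and Gabpa, and the mitochondrial DNA-binding factor Tfam. They were chosen by name, and all probes that carried one of these gene names on the array were taken. That gave 16 probes, each printed as 1 spot, of which 14 were well above background in both samples and served as measurements. All 8 genes had at least 1 such probe, out of 13654 genes measured on both arrays. The tissue was tibialis anterior, the large shin muscle, in which fast fibres prevail, and the labels of both samples give adult C57BL/6 males. The first group, 1 sample, carried an activated Notch2 transgene (N2ICD, labelled N2ICD-mTG), and the second, also 1 sample, was a control whose labels name no allele. Each RNA was labelled with Cy3 and hybridised to 1 array. The sources used here do not name the promoter of the transgene or say whether animals were pooled. With 1 array per group, genotype, animal, dissection and array cannot be told apart, and no p-value was computed.

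PGC-1 coactivators do not bind DNA themselves. They are recruited by transcription factors, among them the ERRs, and raise transcription of nuclear genes for the respiratory chain, the citric acid cycle and fatty acid oxidation. NRF-1 and GABP, whose DNA-binding subunit is encoded by Gabpa, act on an overlapping set of such genes, including Tfam. The Tfam protein enters mitochondria, where it packages mitochondrial DNA and starts its transcription. In skeletal muscle PGC-1α is known for its induction by exercise and for its association with oxidative fibres, and ERRγ for its abundance in oxidative fibres.

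Values below are log2 differences, N2ICD minus control, of the scanner's processed signal after each array was divided by its own 75th percentile signal, which was 190 for N2ICD and 169 for control. Differences are therefore relative to the typical gene, whose median was 0.01 over the 13654 genes. The array holds 59305 gene-directed spots, and background was clearly passed by 24982 of them for N2ICD and 24916 for control. Spots repeated for 1 probe gave a standard deviation (SD) of the difference of 0.14 over 251 probes, and 0.23, 0.12, 0.08 and 0.05 in 4 groups of those probes from dim to bright. Each probe below is set against the spot noise of its own brightness group, which holds no spread between animals. It also leaves out the spread between different probes of 1 gene, whose SD was 0.25 over 3158 genes with several measured probes. The Notch2 probe at transcript position 7448 passed the background limit in N2ICD and not in control (signals of 221 in N2ICD and 6.01 in control), at least 7.72-fold higher in N2ICD. Its neighbour at position 10129 had signals of 179 in N2ICD and 189 in control. Hes1, a direct target of Notch, had signals of 348 in N2ICD and 55.4 in control.

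Of the coactivators, Ppargc1a was higher in the N2ICD muscle, while Ppargc1b lay slightly below 0 on this scale and at 0.39 when the arrays were scaled to spike-in probes. Ppargc1a was read by 2 probes on the reverse strand of chromosome 5 (mm9), at chr5:51848928-51848987 (position 2964 of the transcript) and chr5:51846926-51846985 (position 4966). The first 30 of the 60 bases of each probe are shown so that a reader can see which stretches of the mRNA were measured, given 5′ to 3′ in lower case:
Ppargc1a position 2964: ccccttcaaatggcagcatttccatgaaga
Ppargc1a position 4966: aggccaatgcagctaattttgacagctgca
At position 2964 the signals were 1672 in N2ICD and 941 in control, a log2 difference of 0.66. At position 4966 the signals were 141 in N2ICD and 84.3 in control, a log2 difference of 0.57. Both probes lay more than 2 SD of the spot noise above 0. After normexp background correction their log2 differences were 0.67 and 0.31, so the size at position 4966 depended on that choice. Their mean was 0.62, a 1.53-fold higher level, and 4.56% of all measured genes had a larger log2 difference. Ppargc1b, the paralogue that shares much of the coactivator function, was read by 1 probe with signals of 253 in N2ICD and 246 in control. After scaling its log2 difference was -0.13, within 2 SD of the spot noise. The difference of Ppargc1a exceeded that of Ppargc1b by 0.75 on the log2 scale, against a spot SD of 0.17 for that contrast. That spot SD leaves out the spread between different probes (SD 0.25 between probes of 1 gene).

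**Figure D1:**
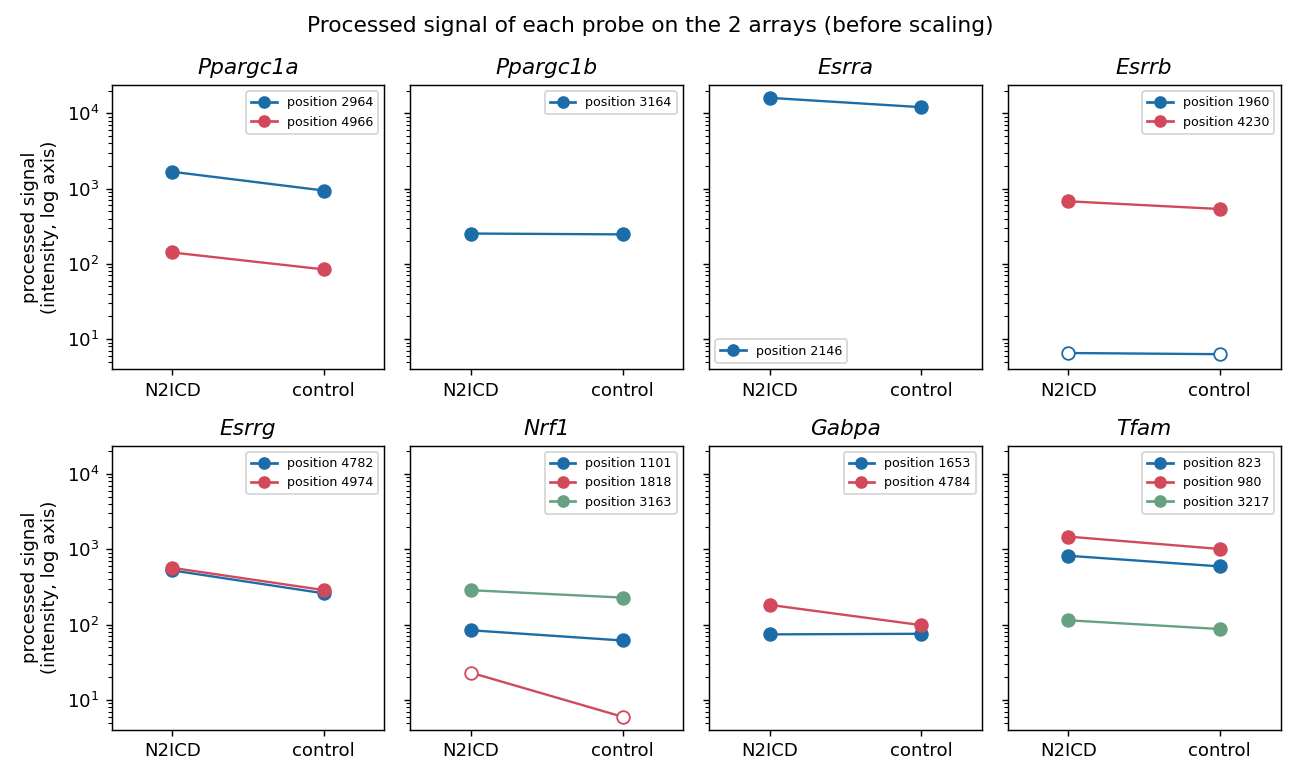
Processed signal (intensity, log axis) of every probe of the 8 genes on the N2ICD array (left) and the control array (right), 1 spot per point, with lines joining the same probe. Filled points were well above background and open points were not. Both Ppargc1a probes and both Esrrg probes were brighter on the N2ICD array, while 1 Gabpa probe was brighter and the other had 74.1 in N2ICD and 75.5 in control.

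Among the ERRs, orphan nuclear receptors that bind DNA without a known natural hormone, Esrrg stood apart. Its 2 probes lie close together on the forward strand of chromosome 1, at chr1:190038192-190038251 and chr1:190038384-190038443 (mm9, transcript positions 4782 and 4974). Their first 30 bases are shown because the largest difference of the set rests on them, and they are separate sequences of one transcript:
Esrrg position 4782: cttgtagtgactctcgtgttttaatcaagc
Esrrg position 4974: ggcagtcttatgtgcaaagatcgtgaatgg
The first had signals of 525 in N2ICD and 260.0 in control, a log2 difference of 0.84. The second had signals of 568 in N2ICD and 287 in control, a log2 difference of 0.81. Their mean was 0.83, or 1.77-fold higher in N2ICD, the largest difference of the 8 genes, and 2.31% of all measured genes lay above it. Both probes were brighter on the N2ICD array by nearly the same amount.

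Esrra, the ERR that PGC-1α itself is known to induce, was read by 1 probe at chr19:6985503-6985562 (mm9, reverse strand). Its signals were 16036 in N2ICD and 12059 in control, and its log2 difference was 0.24, a 1.18-fold higher level. Esrrb, best known from embryonic stem cells and the inner ear, had 1 measured probe (chr12:87862509-87862568, mm9, forward strand) with signals of 678 in N2ICD and 535 in control, a log2 difference of 0.17. A further Esrrb probe, designed on a cDNA clone from adult retina, had signals of 6.53 in N2ICD and 6.31 in control, below the background limit in both. The Esrrg difference exceeded that of Esrra by 0.59 (spot SD 0.10) and that of Esrrb by 0.66 (spot SD 0.12). Esrra and Esrrb differed from each other by 0.07, below the spot SD of 0.09. These spot SDs leave out the spread between different probes (SD 0.25 between probes of 1 gene).

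The nuclear respiratory factors gave a small difference for Nrf1 and a divided reading for Gabpa. Nrf1, which binds palindromic GC-rich sites as a homodimer, had 2 measured probes on the forward strand of chromosome 6. At position 1101 the signals were 84.0 in N2ICD and 61.5 in control, a log2 difference of 0.28. At position 3163 they were 286 in N2ICD and 228 in control, a log2 difference of 0.15. Each lay within 2 SD of the spot noise, and their mean was 0.22. The third Nrf1 probe, at position 1818, had signals of 23.0 in N2ICD and 5.96 in control, below the background limit in both, so no difference is given for it. Nfe2l1, a stress-responsive factor of another family that has also been called NRF1, was a separate measurement, with signals of 872 in N2ICD and 543 in control and a log2 difference of 0.51.

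Gabpa encodes the ETS-type DNA-binding subunit of GABP. Its 2 probes, both on the forward strand of chromosome 16, disagreed, and their first 30 bases are shown to tell them apart:
Gabpa position 1653: tgaagactcttattggatacagtgcagcag
Gabpa position 4784: aagggaggagaatttttgcatacattttta
The probe at position 1653 (chr16:84860691-84860750, mm9) had signals of 74.1 in N2ICD and 75.5 in control, a log2 difference of -0.20, within 1 SD of the spot noise at that level. The probe at position 4784 (chr16:84863822-84863881, mm9) had signals of 183 in N2ICD and 98.3 in control, a log2 difference of 0.72 or 3.13 SD. The gap of 0.92 between them was larger than for most genes: of 3158 genes with several measured probes, 3.13% had probes at least that far apart, and the SD between probes of one gene was 0.25. The gene mean of 0.26 therefore describes neither probe. GABP binds DNA together with a beta subunit, and the genes for that subunit, Gabpb1 and Gabpb2, had log2 differences of -0.05 and -0.24.

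Tfam had 3 measured probes on the reverse strand of chromosome 10, all on the same side of 0. At position 823 the signals were 821 in N2ICD and 593 in control, a log2 difference of 0.30. At position 980 they were 1475 in N2ICD and 1009.6 in control, a log2 difference of 0.37, the furthest from 0 in units of spot noise. The probe at position 3217, dimmer at 114 in N2ICD and 87.2 in control, gave 0.21, within 2 SD of its spot noise. The gene mean was 0.30, a 1.23-fold higher level, and 15.9% of measured genes had a larger difference.

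**Figure D2:**
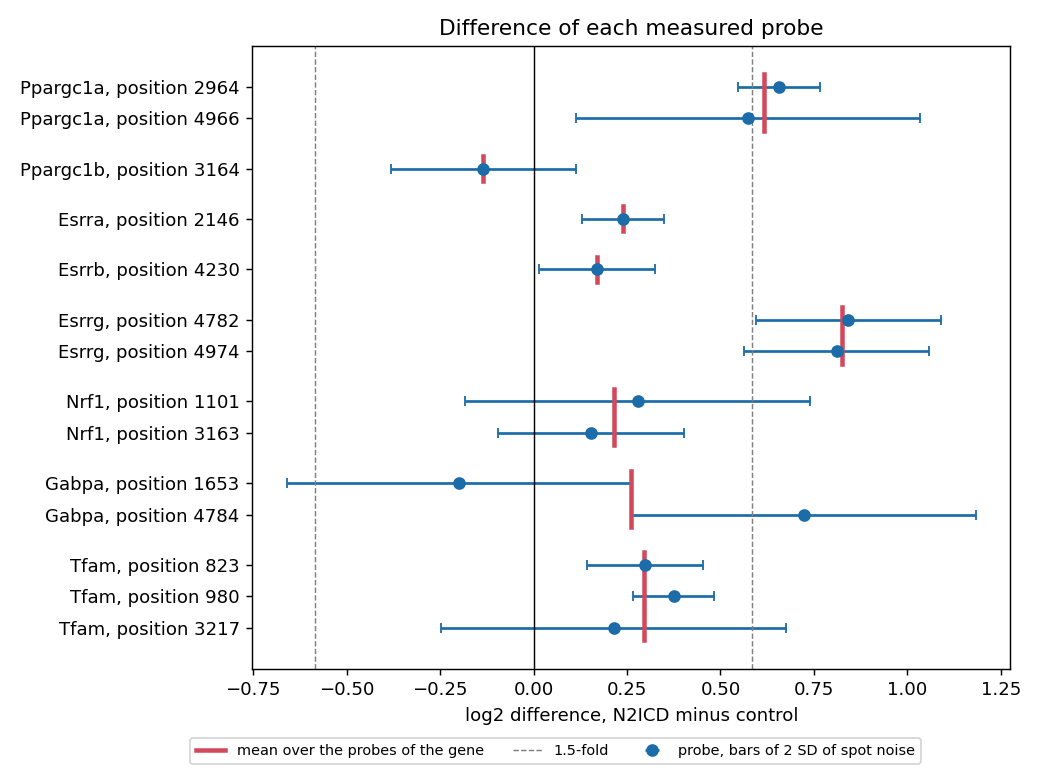
Log2 difference (N2ICD minus control, scaled to the 75th percentile) of each of the 14 probes measured on both arrays. Bars show 2 SD of spot noise at that brightness, red lines the mean over a gene's probes and dashed lines a 1.5-fold difference either way. Esrrg and Ppargc1a lie near or beyond 1.5-fold with all their probes, and the Gabpa probes fall on opposite sides of 0.

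Over the 8 genes, 7 had a log2 difference above 0 and 1 below, and the median was 0.25, against 0.01 over all measured genes, of which 50.8% lay above 0. At least 1.5-fold higher in N2ICD were 2 of the 8, Esrrg and Ppargc1a, where 5.08% of all measured genes were that much higher. None of the 8 was at least 1.5-fold lower, where 4.83% of all genes were. At the stricter 2-fold limit 0 of 8 passed in either direction, where over all genes 1.42% were higher by that much and 0.886% lower. Of the 14 probes, 12 were above 0, and 9 of those by more than 2 SD of the spot noise. The 2 below 0, of Ppargc1b and Gabpa, both lay within 2 SD. The share of all probes on the array past that limit was not counted. Percentiles 25 and 75 of all measured genes were -0.19 and 0.19, against a spot SD of 0.05 in the brightest group. Passing the limit may therefore not set a bright probe apart. Read from the top, the order of the log2 differences was Esrrg, Ppargc1a, Tfam, Gabpa, Esrra, Nrf1, Esrrb and Ppargc1b. The steps from Ppargc1a to Tfam (0.32) and from Esrrb to Ppargc1b (0.30) exceeded 2 SD of the spot noise. The step from Esrrg to Ppargc1a (0.21) did not, nor did any of those between Tfam and Esrrb, the largest of which was 0.05. Spot noise leaves out the spread between different probes (SD 0.25 between probes of 1 gene), so it does not settle this order.

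The level of these differences depended on what the arrays were scaled to. Scaling to the 7 E1A spike-in probes moved the median of all genes up to 0.53, so every list median given below was above 0 on that scale. On that scale Esrrg lay at 1.35, Ppargc1a at 1.14 and Ppargc1b at 0.39, so that the direction of Ppargc1b flipped; this scale adds the same amount to every gene and cannot change their order. Normexp background correction gave 0.72 for Esrrg and 0.49 for Ppargc1a, the second then below 1.5-fold. In the authors' deposited table the folds of the same probes were 1.81 and 1.77 for Esrrg and 1.594 and 1.504 for Ppargc1a, all marked as up.

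Several of these genes are known to regulate one another, and short motifs of their products and of other regulators were looked up in RefSeq promoter windows (GRCm38.p6, 250 bases before to 50 after each annotated start). Windows were found for 7 of the 8 genes. The motifs were AAGGTCA for the ERRs, GCATGCGC for NRF-1, CCGGAAG for GABP, TATTTATAG for MEF2 factors, ACGTCA for CREB-type factors and GTGGGAA for RBPJ, the DNA-binding partner of the Notch intracellular domain. Each was searched on both strands and written as its forward letters. The stretches below hold the matches that lie before the start, in capitals, and each is read along the gene's own strand:
Ppargc1a: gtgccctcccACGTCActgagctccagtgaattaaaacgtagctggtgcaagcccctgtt
Esrrg: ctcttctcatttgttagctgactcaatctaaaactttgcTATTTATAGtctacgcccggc
Esrra: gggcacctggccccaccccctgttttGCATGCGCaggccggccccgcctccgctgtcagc
Gabpa: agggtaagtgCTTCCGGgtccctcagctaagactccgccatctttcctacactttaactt
Tfam: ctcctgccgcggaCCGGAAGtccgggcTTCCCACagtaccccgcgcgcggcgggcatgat
The Ppargc1a stretch (chr5:51567726-51567785, reverse strand) holds ACGTCA, which was in 7.51% of the 32851 windows searched. The Esrrg stretch (chr1:187608946-187609005, forward strand) is from 1 of 4 windows of that gene and holds TATTTATAG, in 0.450% of windows. The Esrra stretch (chr19:6921809-6921868, reverse strand) holds GCATGCGC, in 2.71% of windows. The Gabpa stretch (chr16:84835021-84835080, forward strand) holds the GABP letters on the other strand, and the Tfam stretch (chr10:71238045-71238104, reverse strand) holds them forward, where 8.86% of windows had them. Tfam was the single gene of the 7 with the RBPJ letters, on the other strand, with 1 match before the start and 1 after it, and 6.38% of windows had them. The ERR letters were in none of the 7 genes' windows and in 4.72% of all windows searched. These are matches of letters within a short window, not binding sites shown in this muscle.

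Among genes that act on Ppargc1a, more lay above 0 than below. Of 22 measured upstream regulators, 17 lay above 0 and 5 below, the median log2 difference was 0.17, and 2 were at least 1.5-fold higher. Over all measured genes 50.8% lay above 0 and 5.08% were at least 1.5-fold higher. The list was not divided into genes that raise and genes that lower Ppargc1a. The 2 regulators past 1.5-fold were Ppp3ca, a catalytic subunit of the calcium-dependent phosphatase calcineurin, and Mef2c, a MEF2 transcription factor. Ppp3ca had signals of 3602 in N2ICD and 1889 in control and a log2 difference of 0.76. Mef2c had signals of 1162 in N2ICD and 647 in control and a log2 difference of 0.67. The other calcineurin catalytic subunit Ppp3cb had 0.58 and the folliculin partner Fnip1 0.55. The AMP-activated kinase subunits Prkaa1 and Prkaa2 had 0.09 and 0.29. The kinase gene Camk4 was not measured, since none of its 3 probes passed the background limit.

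Coregulators and partners split about as all measured genes did. Of 17 measured, 9 lay above 0 and 8 below, where 50.8% of all measured genes lay above 0. Their median was 0.00, and 0 were beyond 1.5-fold, where 5.08% of all genes were that much higher and 4.83% lower. The corepressor Nrip1, which opposes PGC-1α-driven oxidative metabolism, had the largest log2 difference at 0.52, from probes at 0.66 and 0.38. The deacetylase Sirt1 had 0.22 and Gabpb2 -0.24. The third PGC-1 family member Pprc1 had signals of 133 in N2ICD and 109 in control and a difference of 0.12. Perm1, a muscle protein induced by PGC-1 and ERR, had signals of 14394 in N2ICD and 12900 in control and a difference of -0.01.

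Known target genes of PGC-1 and the ERRs lay mostly a little above 0. Of 23 measured, 20 lay above 0 and 3 below, where 50.8% of all measured genes lay above 0. Their median log2 difference was 0.14. At least 1.5-fold higher was 1 of the 23, where 5.08% of all measured genes were that much higher. It was myoglobin (Mb), the oxygen store of oxidative fibres, with signals of 205259 in N2ICD and 116644 in control and a log2 difference of 0.64. Idh3a of the citric acid cycle had 0.39, the pyruvate dehydrogenase kinase Pdk4 0.32 and cytochrome c (Cycs) 0.30. Targets of NRF-1 and GABP, a list that shares Cycs and Cox5b with the previous one, had 9 of 13 measured genes above 0 and a median of 0.11. They were led by the cytochrome oxidase subunit Cox6c at 0.57 and the import receptor Tomm20 at 0.45. That list also shares Tfb1m, Tfb2m and Polrmt with the mitochondrial DNA genes and Mef2a with the upstream regulators. The PGC-1 and ERR targets share Perm1 with the coregulators and Mfn2 with the fusion and fission genes. The list medians are therefore not from separate sets.

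Genes that act beside Tfam on mitochondrial DNA split about as all measured genes did. Of 15 measured, 7 lay above 0 and 8 below, where 50.8% of all measured genes lay above 0. Their median was -0.02, and 0 were beyond 1.5-fold, where 5.08% of all genes were that much higher and 4.83% lower. The transcription factor Tfb2m had 0.33, the protease Lonp1, which degrades Tfam protein, 0.27, and the termination factor family members Mterf1a and Mterf3 0.24 and 0.23. The mitochondrial RNA polymerase Polrmt had -0.03 and the helicase Twnk -0.13. Mitochondrial fusion and fission genes had 5 of 10 above 0, also near the share of all genes, and a median of 0.03. At least 2-fold lower was 1 of the 10, where 0.886% of all measured genes were. It was the inner membrane protease Yme1l1, 2.26-fold lower in N2ICD, on 1 dim probe with signals of 65.2 in N2ICD and 131 in control. The fission dynamin Dnm1l had 0.46, the dynamin receptor Mff 0.28 and Mief2 -0.30.

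**Figure D3:**
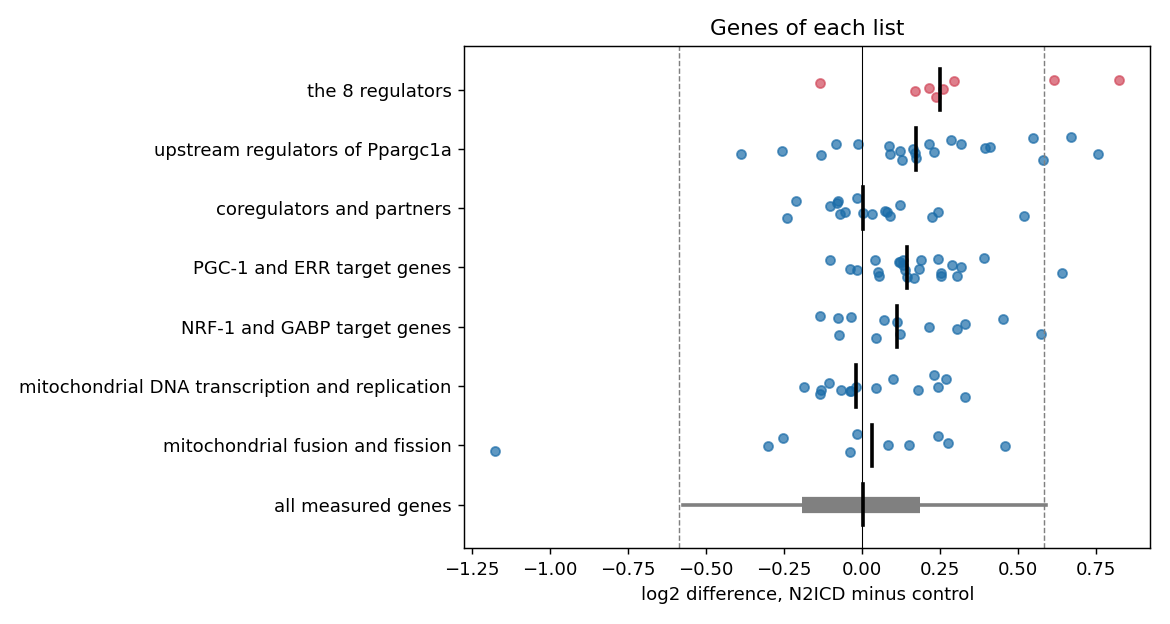
Log2 difference (N2ICD minus control) of each measured gene of the 8 regulators and of 6 lists around them, with black bars at the medians and dashed lines at a 1.5-fold difference either way. Some lists share genes. The grey bars at the bottom span percentiles 25 to 75 (thick) and 5 to 95 (thin) of all measured genes. The median of the 8 regulators (0.25) lies furthest to the right, followed by upstream regulators (0.17) and PGC-1 and ERR targets (0.14).

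The samples carried the defining transcripts of skeletal muscle fibres, with all 8 fibre markers measured in both samples, 4 above 0 and 4 below, at a median log2 difference of -0.04. Those below 0 were Ckm at -0.52, Myh4 at -0.26, Tnnt3 at -0.18 and Acta1 at -0.11. The largest difference was that of Myh2, the myosin of oxidative fast fibres, with signals of 182477 in N2ICD and 65700 in control, a 2.46-fold higher level. Its part in the values of the 8 regulators was not tested. Because this is bulk tissue, more cells of one kind cannot be told apart from more RNA per cell. Of the brown fat markers, Ucp1 (signals of 11.0 in N2ICD and 5.74 in control) and Elovl3 (6.73 in N2ICD and 6.47 in control) did not pass the background limit. In the same list Cidea had -0.62, Cox8b, which muscle also makes, -0.09, and Zic1 0.89 as the mean of probes at 0.12 and 1.65. Of 6 cardiac markers 5 did not pass it either, and Myh6 had 0.30. Below 0 on this scale were 4 of 5 endothelial markers (summed scaled level 22.5 in N2ICD and 28.5 in control). So were 4 of 6 fibroblast markers (482 in N2ICD and 594 in control) and 3 of 5 macrophage markers (5.52 in N2ICD and 7.35 in control). Each level is in multiples of the array's 75th percentile signal, and the brightest genes weigh most in it. Of all measured genes, 50.8% lay above 0. Of these markers, those above 0 were Pecam1 (0.12), Pdgfra (0.11), Lum (0.09), Lyz2 (0.40) and Adgre1 (0.05). Furthest below 0 in each list were Emcn (-0.59), Col1a1 (-0.41) and Csf1r (-0.61). White adipocyte markers had 2 of 4 measured genes above 0 (35.8 in N2ICD and 28.3 in control). That sum was mostly Fabp4, with signals of 6173 in N2ICD and 4246 in control, where Adipoq had 301 and 281. Fabp4 and Cidec each had a log2 difference of 0.37, Adipoq -0.08 and Plin1 -0.30, and Lep did not pass the background limit. Schwann cell and nerve markers had 2 of 3 above 0 (1.37 in N2ICD and 1.19 in control). The part of these cells in the values of the 8 regulators was not tested.

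**Figure D4:**
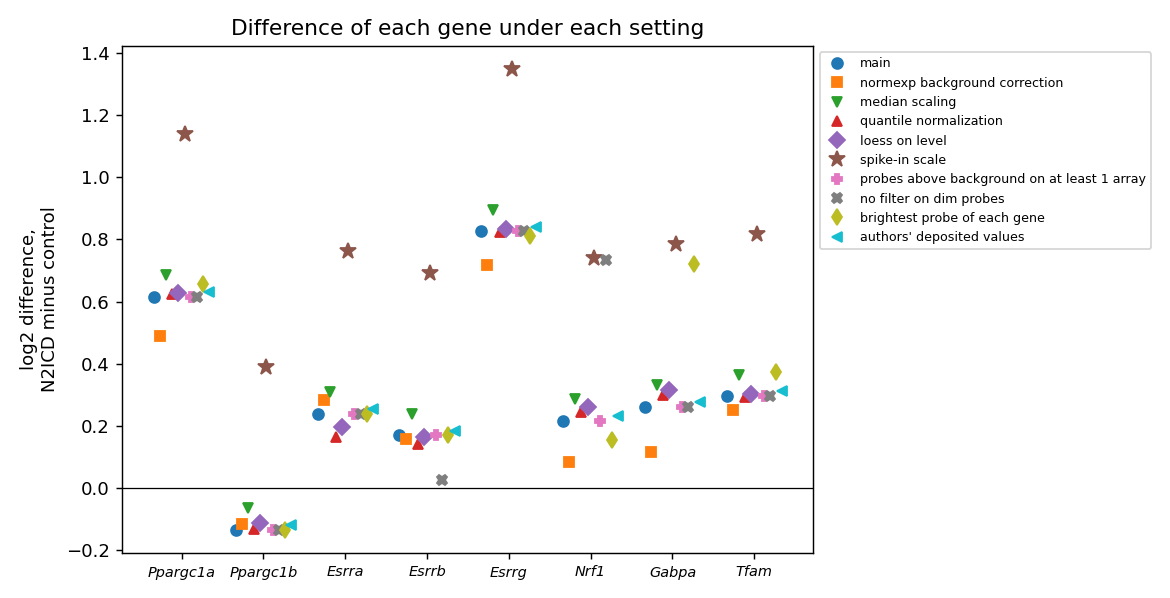
Log2 difference (N2ICD minus control) of each of the 8 genes under each processing setting, 1 marker per setting. Stars, the spike-in scale, lie above the other markers for every gene but Nrf1, where they meet the value without a filter on dim probes. Ppargc1a and Esrrg are at 0.49 or above in every setting, and Gabpa and Nrf1 move with the choice of probes.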

How the data were processed

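Total RNA of 1 N2ICD and 1 control muscle sample was hybridised to 1-colour arrays, and groups were taken from the sample labels. Per the file headers, the deposited spot intensity values come from Agilent Feature Extraction 10.10.1.1, which subtracted background and detrended each array without scaling arrays to one another. The same headers place probes on mm9. The authors' deposited table gives an unsigned fold (ratio) with its direction, with an intensity and a log2 value for each array that the authors normalized in a way not stated here.

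From each log2 processed signal the array's 75th percentile over gene-directed spots was taken off. Left out were 215 spots with outlier flags. Probes well above background on both arrays were averaged per gene, and 31161 spots were named through RefSeq accessions (GRCm38.p6). The members and lists were chosen with earlier results of these data known. Named genes were all members, up to 4 measured genes of each list (those furthest from 0), and Pprc1, Perm1 and Nfe2l1; 1 gene that this rule names is not reported here. Gabpb1, Prkaa1, Prkaa2, Polrmt, Twnk and the cell type markers were named after their values were seen. Cox5b, Tfb1m, Mef2a and Mfn2 were named only because they are in more than 1 list. No gene was named for likeness of pattern, since 2 arrays give 1 difference per gene. On simulated arrays with the measured spot noise, 98.5% of 200 genes changed by 1.0 on the log2 scale passed 1.5-fold, as did 33 of 13454 unchanged genes. That noise holds no spread between animals, and none of the 8 genes differed by as much as 1.0 in the setting reported. The simulation therefore cannot say how often a 1.5-fold difference would recur in other animals. The number of arrays limits the precision. Alternatives in scaling, background correction and the filter on dim probes were run. Scripts used Python 3.11.15 with pandas 2.3.3 and numpy 2.4.6, and limma 3.58.1 under R 4.3.3.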

Additional observations from a re-analysis of the deposited data

How the results depend on the processing

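No paired analysis was possible because each group has 1 array, and for the same reason no replicate could be left out. Quantile normalization, median scaling, a loess fit on level, a filter that asks for 1 array above background, and the authors' deposited values moved none of the 8 genes, their median or the list medians by more than the spot noise SD of 0.14. That SD is pooled over all brightness groups. Esrra, whose own group has an SD of 0.05, was 0.24 in the setting reported, 0.16 with quantile normalization and 0.31 with median scaling. On the spike-in scale the median of the 8 genes was 0.77 and 7 of them passed 1.5-fold. On that scale 5661 of all 13654 measured genes were at least 1.5-fold higher and the median of all genes was 0.53. The list medians were then 0.70 (upstream regulators), 0.67 (PGC-1 and ERR targets), 0.63 (NRF-1 and GABP targets), 0.56 (fusion and fission), 0.53 (coregulators) and 0.50 (mitochondrial DNA genes). With normexp background correction 1 of the 8 passed 1.5-fold, and at a 2-fold limit 0 did. Gabpa was 0.12 after normexp and 0.72 with its brightest probe alone, Nrf1 0.74 and Esrrb 0.02 with no filter on dim probes, which takes in their undetected probes. Over all genes, 694 were at least 1.5-fold higher and 659 lower, against 359 and 232 after normexp, 911 and 488 with median scaling, 5661 and 82 on the spike-in scale, 1045 and 1038 with the looser filter and 2215 and 2452 with none. The higher share of these was 51.3% in the setting reported, 60.7% after normexp, 65.1% with median scaling and 98.6% on the spike-in scale. The cause of these shifts was not tested.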

Other observations

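Atp5j, a subunit of the ATP synthase annotated within 1000 bases of Gabpa, had a log2 difference of 0.30 from probes at 0.22 and 0.38, where the Gabpa probes had -0.20 and 0.72. Beside Esrra, within the same distance, the peroxiredoxin Prdx5 had -0.06 and the methyltransferase partner Trmt112 -0.17 (probes between -0.53 and 0.01), where Esrra had 0.24.

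Measured genes were also grouped by the motif letters in their promoter windows, whatever their function, and are described without a test. Among 9442 measured genes with a searched promoter window, none on chromosome 18, the median log2 difference was 0.01. Of these genes 5.16% were higher and 4.51% lower by 1.5-fold or more. The 385 genes with the ERR letters had a median of -0.00, with 6.23% higher and 3.90% lower. The 544 with the NRF-1 letters had a median of 0.04, with 3.49% higher and 1.47% lower, and the 1818 with the GABP letters 0.04, with 3.74% and 2.04%. The 58 with the MEF2 letters, found in an Esrrg window, had a median of 0.00, with 10.3% higher and 6.90% lower, which is 6 and 4 genes. The 1244 with the CREB-type letters, found in the Ppargc1a window, had a median of 0.05, with 5.95% higher and 2.81% lower. The 646 with the RBPJ letters had a median of 0.02, with 5.26% higher and 4.49% lower. The letters of a motif were searched in a short window alone, and the genes of these groups overlap.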
